A study of Mus musculus with 6 samples.

Results

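The genes described here copy DNA and govern entry into S phase. They comprise 51 mouse genes of origin licensing, replication forks, nucleotide supply and the G1/S step, taken as the genes whose symbol matched a fixed list, and all 51 were found among the 23219 genes of the table. RNA was measured by sequencing in whole kidneys of mouse embryos at embryonic day 17. The 3 mutant kidneys (genotype Six2Cre Mta2flx/flx, numbered 6, 8 and 9 by the labels) were compared with 3 control kidneys (genotype Mta2flx/flx, numbered 5, 7 and 11). Both groups carry the floxed Mta2 alleles, and the Cre transgene, driven by Six2 in nephron progenitors, is carried by mutant kidneys alone. Loss of Mta2 and presence of the transgene therefore cannot be told apart, and lineages outside the nephron, such as the ureteric bud, keep the gene in a whole kidney. The series title names programmed FSGS, a scarring disease of glomeruli, as the outcome, and the comparison asks how kidney transcripts differ once Mta2, a subunit of the nucleosome remodelling and deacetylase complex NuRD, is deleted in progenitors.

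Before a cell can copy its genome, the origin recognition complex, CDC6 and CDT1 load the ring of MCM proteins onto DNA during G1, and geminin blocks CDT1 afterwards so that no origin is loaded again. Cyclins D and E with their kinases release E2F factors from RB-family proteins, and E2F then raises transcription of most of the genes described here. CDC45 and the GINS proteins turn the loaded MCM ring into an active helicase, behind which polymerases alpha, delta and epsilon copy the strands. In the embryonic kidney, nephron progenitors, ureteric tips, stroma and young tubules all divide, and maturing tubules and podocytes leave the cycle.

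Summed coverage was 794 to 1235 megabases per library. Levels are given in BPM, the covered bases of a gene scaled to a total of 1000000 per library, and the number of reads behind them is unknown. Nothing in the labels says that kidneys came from separate embryos, so p-values measure only how these samples vary, which may be technical variation. Mta2 stood at 139.6, 189 and 146 BPM in mutants 6, 8 and 9, against 219.7, 198 and 210.5 BPM in controls 5, 7 and 11, with every mutant below every control (limma log2 fold change -0.41, SE 0.21, adjusted p = 0.887). Control 11 stood apart with 22950 BPM on Lars2, against 739 to 4823 BPM in the other 5 libraries, and mutant 6 stood apart on the first principal component (-70.3, against 4.38 to 26.2 in the others). Control 11 also held 11683 BPM on Rmrp, against 4953 to 6405.5 BPM in the other 5. It had 16646 genes above 0, against 14467 to 15003 in the other 5. Markers of proximal tubule, podocyte, nephron progenitor, ureteric bud, stroma and endothelium were present in all 6 libraries. In bulk tissue, fewer dividing cells and less RNA per cell cannot be told apart.

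As a group, replication and G1/S genes lay about as often above as below the control level. Of 51 members, all of which passed the filter on low values (at least 1 BPM in at least 3 libraries), 26 had a log2 fold change above 0 and 25 below 0, against 52.6% above 0 among the 13977 genes tested. Their median was 0.037 and that of all genes 0.023, with members between -1.37 (Cdt1) and 0.85 (Ccne2). The mean log2(BPM + 1) level of the members, relative to the control mean, was 0.041, -0.043 and 0.059 in mutants 6, 8 and 9, against 0.035, -0.056 and 0.022 in controls 5, 7 and 11. The groups overlapped on this measure, and all 6 kidneys lay within a narrow band.

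No member passed the test. Limma, with Benjamini-Hochberg adjustment over all genes, left 0 of 13977 genes (0%) past an adjusted p threshold of 0.05, and thus 0 of 51 members, whose adjusted p ran from 0.854 to 0.995. It also called 0 members without its mean-variance trend and with sample weights. At an unadjusted p below 0.05 there were 3 members with higher values in mutant kidneys (Ccne2, Ccnd2 and Gins4), 5.88% of members against 2.90% of all genes. The one member with lower values at that level was Pold1, 1.96% of members against 2.70% of all genes. Every mutant kidney exceeded every control kidney for 4 members (Ccne2, Ccnd2, Gins3 and Prim2), 7.84% against 6.10% of all genes, and lay below every control for 3 (Pold1, Cdt1 and Ccnd1), 5.88% against 5.12%. The shares without overlap are near the background. The authors' deposited table gives an unadjusted p below 0.05 for 2 members with a ratio above 1, Ccne2 (ratio 1.84, p = 0.00373) and Ccnd2 (ratio 1.33, p = 0.00571), and for 0 members with a ratio below 1, where 2.84% and 2.35% of the genes tested met those conditions in the same table.

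**Figure D1:**
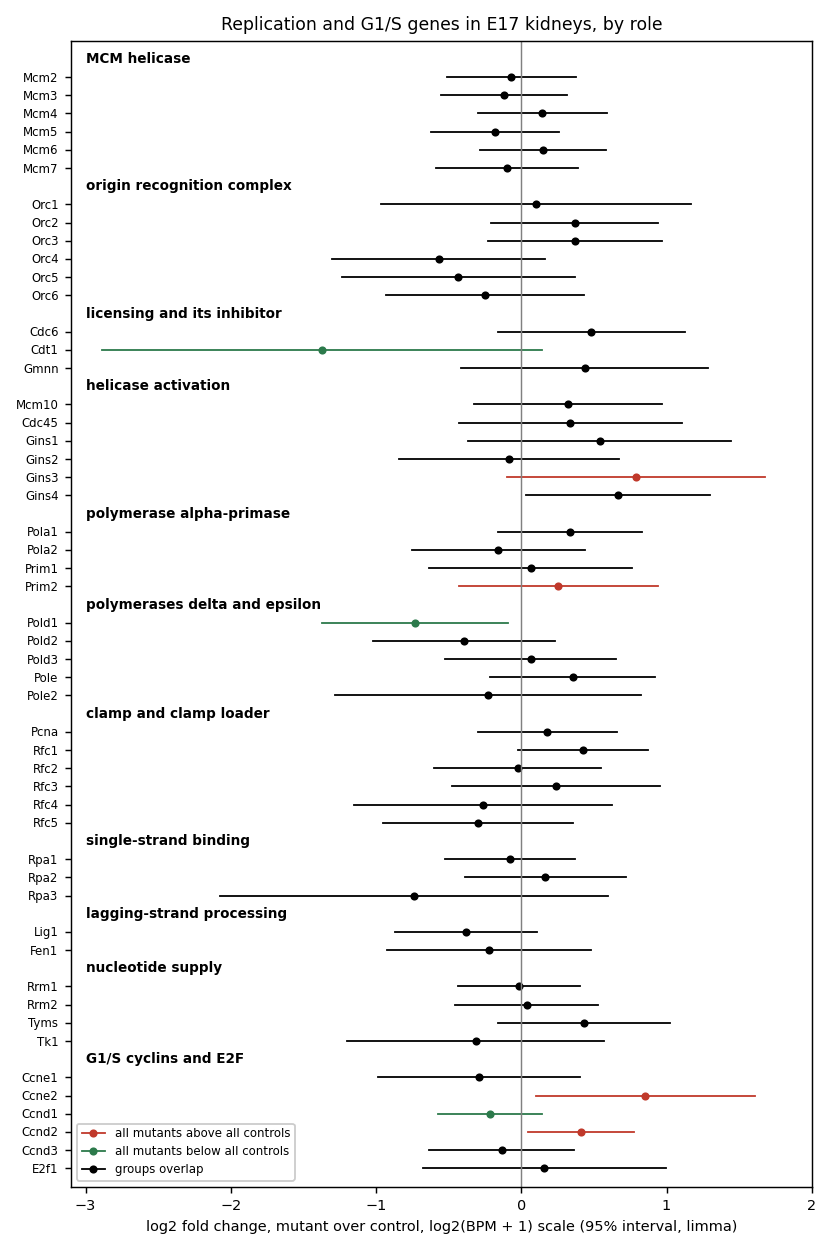
Log2 fold change of each of the 51 members, mutant over control on the log2(BPM + 1) scale (x axis), by role from top to bottom; points are limma estimates, lines 95% intervals, and colours show whether the 3 mutant and 3 control values overlap. Most lines cross 0, those of Ccne2, Ccnd2 and Gins4 lie above it and that of Pold1 lies below it.

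The precision differed among members. The standard error of the log2 fold change ran from 0.18 (Ccnd1) to 0.75 (Cdt1), with a median of 0.31. Within a group, the median SD of a member's log2 level was 0.24 over mutant and 0.30 over control kidneys. Control 11 was the highest of the 6 libraries for 14 members and the lowest for 10, against 5 to 9 members at the highest and 6 to 11 at the lowest for each other library. Per kilobase of exon, the mean of both groups was largest for Ccnd1 (139 BPM per kb), the clamp gene Pcna (90.0), Mcm3 (64.9), Rrm1 (62.1) and Ccnd2 (61.3), and smallest for Cdt1 (1.57 BPM per kb).

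Promoter sequence was not used to choose the genes, and E2F motif matches were more frequent among their promoters than among those of all genes. RefSeq promoter windows (GRCm38.p6, the mm10 build, 250 bases before to 50 after the first listed start) were at hand for 40 of 51 members, with no entry for Mcm4, Gmnn, Gins1, Gins2, Gins4, Prim2, Pole, Rfc2, Ccne2, Ccnd1 and Ccnd2. Matches to the E2F motif, searched as TTTCCCGC, TTTCGCGC, TTTGCCGC and TTTGGCGC on both strands with overlapping matches counted, stood in 14 of 40 windows (35.0%), against 2.32% of the 27025 genes with a window. The cell cycle homology region (CHR, searched as TTTGAA on both strands), through which the DREAM complex acts on mitotic genes, was in 4 of 40 (10%), against 27 of 36 windows of a mitosis list (75%, E2F 8.33%) and 18.1% of all genes. The GC box GGGCGG was in 75% and CCAAT in 55.0% of the members' windows, against 35.9% and 37.9% of all. Median GC content was 60.7% for the members and 52.7% for all genes, so base composition differed as well. Among members with an E2F match 8 had a log2 fold change above 0 and 6 below (median 0.083), and among those without 10 lay above and 16 below (median -0.11). The windows of Fen1 and Lig1, counted as without a match, lie wholly upstream of the annotated genes. The split by match thus depends in part on which start was listed. Windows of 4 members with matches are shown 5′ to 3′ with the matches in capitals: Gins3, with higher values in mutant kidneys, Pold1 and Cdt1, with lower values, and Mcm6, an MCM gene with overlapping groups. They lie at chr8:95633309-95633608 on the plus strand for Gins3, chr7:44548766-44549065 on the minus strand for Pold1, chr8:122567765-122568064 on the plus strand for Cdt1 and chr1:128359656-128359955 on the minus strand for Mcm6.
Gins3: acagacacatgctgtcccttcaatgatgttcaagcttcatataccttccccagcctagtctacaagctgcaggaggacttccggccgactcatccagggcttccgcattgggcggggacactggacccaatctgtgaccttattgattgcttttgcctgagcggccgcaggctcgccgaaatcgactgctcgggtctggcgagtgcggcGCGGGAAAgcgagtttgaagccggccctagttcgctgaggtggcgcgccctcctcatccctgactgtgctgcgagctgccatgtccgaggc
Pold1: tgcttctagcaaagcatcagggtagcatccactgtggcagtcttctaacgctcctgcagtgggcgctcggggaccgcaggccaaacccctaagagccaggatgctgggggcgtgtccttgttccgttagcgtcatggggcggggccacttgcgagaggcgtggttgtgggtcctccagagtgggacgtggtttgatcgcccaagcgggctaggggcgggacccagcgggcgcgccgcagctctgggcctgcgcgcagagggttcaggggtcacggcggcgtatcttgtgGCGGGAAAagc
Cdt1: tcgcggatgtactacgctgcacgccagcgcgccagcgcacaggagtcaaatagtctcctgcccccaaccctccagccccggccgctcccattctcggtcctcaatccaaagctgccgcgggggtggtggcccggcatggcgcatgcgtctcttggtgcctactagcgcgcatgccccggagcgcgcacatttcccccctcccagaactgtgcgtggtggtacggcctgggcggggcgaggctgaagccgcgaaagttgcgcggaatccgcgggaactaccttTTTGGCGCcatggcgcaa
Mcm6: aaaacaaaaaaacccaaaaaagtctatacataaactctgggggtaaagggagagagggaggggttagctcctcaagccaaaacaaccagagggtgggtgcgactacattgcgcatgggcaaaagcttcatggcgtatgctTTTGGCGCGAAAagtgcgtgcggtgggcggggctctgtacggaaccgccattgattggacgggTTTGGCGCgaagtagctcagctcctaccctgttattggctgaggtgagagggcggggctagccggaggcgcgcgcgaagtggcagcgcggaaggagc
Gins3, Pold1 and Cdt1 held 1 match each and Mcm6 held 3, of which 2 overlap. A match describes the letters and does not show that a factor binds there.

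**Figure D2:**
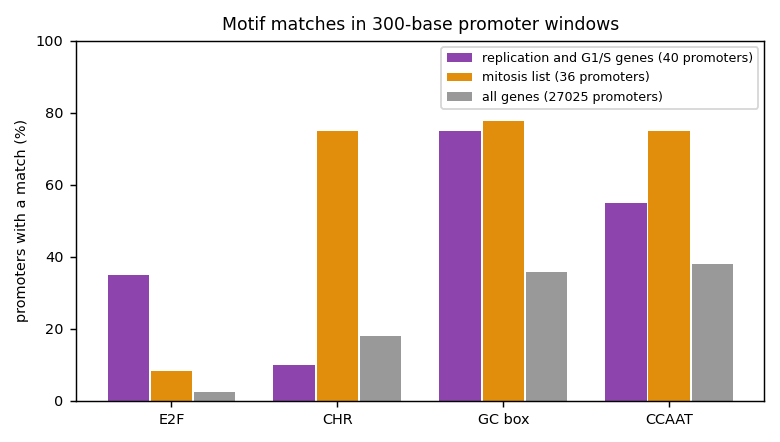
Share of promoter windows of 300 bases with at least 1 match to each motif (y axis, percent), for the replication and G1/S genes, the mitosis list and all genes with a window (bars). The E2F bar is 35.0% for replication and G1/S genes and 2.32% for all genes, and the CHR bar is 75% for the mitosis list and 10% for replication and G1/S genes.

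The 6 subunits of the MCM ring did not separate the groups. Mcm2 stood at 175, 196 and 176 BPM in mutants 6, 8 and 9, against 172, 154 and 264 BPM in controls 5, 7 and 11. Mcm3 stood at 159, 184 and 221 BPM in mutants 6, 8 and 9, against 216, 165 and 235 BPM in controls 5, 7 and 11. Mcm5 stood at 215, 189 and 173 BPM in mutants 6, 8 and 9, against 236, 159 and 271 BPM in controls 5, 7 and 11. For these 3 subunits control 11 had the highest level of all 6 kidneys. Mcm4 stood at 172, 171 and 153 BPM in mutants 6, 8 and 9, against 165, 121 and 166 BPM in controls 5, 7 and 11, and Mcm6 at 212, 189 and 153 BPM in mutants 6, 8 and 9, against 169.6, 153 and 173 BPM in controls 5, 7 and 11. Mcm7, which hosts the microRNA genes Mir25 and Mir93, stood at 97.0, 93.3 and 83.4 BPM in mutants 6, 8 and 9, against 117, 79.9 and 99.4 BPM in controls 5, 7 and 11. Control 7 was the lowest kidney for Mcm2, Mcm4, Mcm5 and Mcm7. Log2 fold changes were -0.070, -0.12 and -0.18 for Mcm2, Mcm3 and Mcm5, 0.15 and 0.15 for Mcm4 and Mcm6, and -0.10 for Mcm7, with standard errors of 0.21 to 0.24. The 95% intervals reached no lower than -0.62 (Mcm5) and no higher than 0.59 (Mcm4). Without control 11 the values were 0.16 for Mcm2, -0.017 for Mcm3 and -0.021 for Mcm5. Per kilobase of exon the subunits were unequal at the RNA level, from 62.1 BPM per kb in mutant and 67.7 in control kidneys for Mcm3 to 30.8 and 33.3 for Mcm7.

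**Figure D3:**
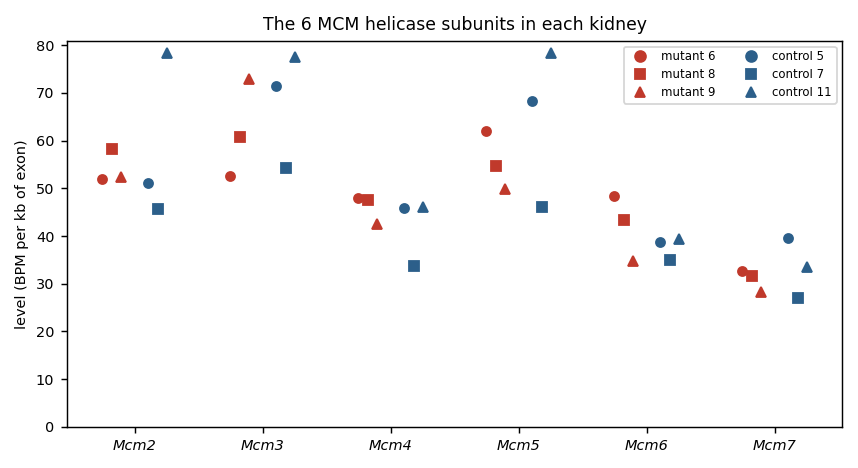
Level of the 6 MCM subunit genes in BPM per kilobase of exon (y axis) in each kidney, mutants left and controls right of each gene's centre; each symbol is 1 kidney. Mutant and control points overlap for each of the 6 genes, and control 11 is the highest point for Mcm2, Mcm3 and Mcm5.

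The genes that load the ring gave mixed values. The origin recognition complex had 3 members above 0, Orc1 (0.10), Orc2 (0.37) and Orc3 (0.37), and 3 below, Orc4 (-0.57), Orc5 (-0.43) and Orc6 (-0.25), none without overlap. Orc4 read 41.0, 23.3 and 18.6 BPM in mutants 6, 8 and 9, against 38.1, 56.4 and 28.0 BPM in controls 5, 7 and 11, and its mutant 6 value lay among the controls. Its interval was -1.30 to 0.17 (adjusted p = 0.896). Cdc6, the loading ATPase, read 41.0, 61.3 and 44.3 BPM in mutants 6, 8 and 9, against 25.9, 41.0 and 37.6 BPM in controls 5, 7 and 11, and mutant 6 lay just below control 7 (log2 fold change 0.48, SE 0.32, limma adjusted p = 0.896).

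Cdt1, which brings MCM to the origin (chr8:122568015-122573554, plus strand), read 0, 1.86 and 3.33 BPM in mutants 6, 8 and 9, against 5.10, 3.53 and 6.79 BPM in controls 5, 7 and 11. All mutant values lay below all control values. It was the member at the lowest level, listed at 0 in mutant 6, so the log2 fold change of -1.37 depends on the pseudocount (-2.53 with a pseudocount of 0.1) and had the widest interval of the set (-2.89 to 0.14, limma adjusted p = 0.887). Leaving out 1 library at a time gave -1.82 to -0.77, and leaving out mutant 6 and control 11 together gave -0.58. Gmnn, which encodes the CDT1 inhibitor geminin, overlapped between the groups, with a log2 fold change of 0.44 (SE 0.42).

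Genes that activate the loaded helicase mostly had higher values in mutant kidneys, though none was called. Of Mcm10, Cdc45 and the 4 GINS genes, 5 of 6 lay above 0, with a median log2 fold change of 0.44, against -0.085 for the 6 MCM genes and 0.023 for all genes. The difference between these small groups of genes was not tested. Their mean log2 level relative to control was 0.44, 0.34 and 0.51 in mutants 6, 8 and 9, against 0.15, -0.0057 and -0.15 in controls 5, 7 and 11, so every mutant kidney exceeded every control kidney on this mean. Of the 6 single genes, 1 (Gins3) was higher without overlap (16.7%, against 6.10% of all genes). Leaving out control 11 moved the median to 0.33, and leaving out mutant 6 as well gave 0.36.

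Gins4, a GINS subunit (chr8:23226616-23237659, minus strand), read 61.0, 51.2 and 61.3 BPM in mutants 6, 8 and 9, against 55.9, 31.6 and 26.2 BPM in controls 5, 7 and 11. Control 5 lay within the mutant range and the other controls below it. Gins4 averaged 57.8 ± 5.74 BPM in mutant and 37.9 ± 15.8 BPM in control kidneys (SD, n = 3 per group), which gives a log2 difference of 0.67 (SE 0.31, limma adjusted p = 0.863), or 0.45 without control 11. Gins3, another subunit (chr8:95633453-95645060, plus strand, promoter shown above), read 28.7, 15.6 and 20.9 BPM in mutants 6, 8 and 9, against 11.2, 11.9 and 12.3 BPM in controls 5, 7 and 11. The controls lay close together and every mutant exceeded them (log2 fold change 0.79, SE 0.44, limma adjusted p = 0.887). Gins1 had a log2 fold change of 0.54, Cdc45 of 0.34 and Mcm10, which helps the helicase start, of 0.32, and Gins2 was the exception at -0.086. Those 4 genes overlapped between the groups.

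The genes of polymerases delta and epsilon had values of both signs. Pold1, the catalytic subunit of polymerase delta, which copies the lagging strand (chr7:44532746-44548849, minus strand), read 43.8, 26.4 and 29.0 BPM in mutants 6, 8 and 9, against 48.0, 48.0 and 69.5 BPM in controls 5, 7 and 11. Every mutant lay below every control, with mutant 6 nearest to the controls. Pold1 averaged 33.1 ± 9.35 BPM in mutant and 55.2 ± 12.4 BPM in control kidneys (SD, n = 3 per group), which gives a log2 difference of -0.73 (SE 0.32, limma adjusted p = 0.854), and -0.95 to -0.56 with 1 library left out at a time. Pole, the catalytic subunit of the leading-strand polymerase epsilon, had a log2 fold change of 0.35 (interval -0.21 to 0.92), with overlapping groups. Taken per kilobase of exon within each kidney, the ratio of Pole to Pold1 was 0.557, 1.26 and 1.24 in mutants 6, 8 and 9, against 0.583, 0.521 and 0.284 in controls 5, 7 and 11. Mutants 8 and 9 lay above the controls and mutant 6 among them. The accessory subunits gave -0.39 for Pold2, 0.065 for Pold3 and -0.23 for Pole2.

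Of the polymerase alpha and primase genes, which lay the primers, 3 of 4 lay above 0. Pola1, the X-linked catalytic subunit, read 88.9, 129 and 111 BPM in mutants 6, 8 and 9, against 101, 88.1 and 70.7 BPM in controls 5, 7 and 11, and mutant 6 overlapped the controls (log2 fold change 0.33, SE 0.24, limma adjusted p = 0.909). Prim2, a primase subunit, had every mutant above every control, but mutant 8 at 31.1 BPM and control 5 at 31.0 BPM nearly touched, and its log2 fold change was 0.25 (SE 0.34). Prim1 was at 0.063 and Pola2 at -0.16.

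Among the clamp and its loader, Rfc1, the large loader subunit, read 215, 161 and 179.6 BPM in mutants 6, 8 and 9, against 162, 145 and 109 BPM in controls 5, 7 and 11. Mutant 8 lay just below control 5, the highest control (log2 fold change 0.43, SE 0.22, limma adjusted p = 0.887, 0.26 without control 11). Rfc2 to Rfc5, the small subunits, were at -0.026, 0.24, -0.26 and -0.30, and Pcna, the clamp itself, at 0.18 (interval -0.30 to 0.66). Rpa1 and Rpa2, the large and middle subunits of the single-strand binding protein, were at -0.079 and 0.17. Rpa3, the small one and a low-level gene, was at -0.74 with an SE of 0.66.

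Both genes that finish lagging-strand fragments had lower means in mutant kidneys. Lig1, the DNA ligase, read 82.3, 96.7 and 87.8 BPM in mutants 6, 8 and 9, against 122, 89.4 and 142 BPM in controls 5, 7 and 11, and control 7 lay within the mutant range (log2 fold change -0.38, SE 0.24, limma adjusted p = 0.896, -0.23 without control 11). Fen1, the flap endonuclease, was at -0.22, and at 0.29 without control 11, which held 223 BPM, against 76.2 to 106 BPM in the other 5 kidneys. The sign for Fen1 thus rested on 1 library. Of the nucleotide supply genes, Tyms, which makes thymidylate, read 64.3, 48.6 and 73.9 BPM in mutants 6, 8 and 9, against 50.1, 52.9 and 35.0 BPM in controls 5, 7 and 11, with overlap (log2 fold change 0.43, SE 0.29, limma adjusted p = 0.896). The ribonucleotide reductase genes Rrm1 and Rrm2 were at -0.016 and 0.037, and the thymidine kinase gene Tk1 at -0.31 (SE 0.44).

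Among the cyclins of G1 and the G1/S step, cyclins E1 and E2 and cyclins D1 and D2 had log2 fold changes of opposite sign. Ccne2, which encodes cyclin E2 (chr4:11191351-11204779, plus strand), read 36.8, 31.3 and 30.9 BPM in mutants 6, 8 and 9, against 14.8, 18.6 and 20.2 BPM in controls 5, 7 and 11. The lowest mutant stood above the highest control. Ccne2 averaged 33.0 ± 3.29 BPM in mutant and 17.9 ± 2.78 BPM in control kidneys (SD, n = 3 per group), which gives a log2 difference of 0.85 (SE 0.37, interval 0.10 to 1.61, limma adjusted p = 0.854), and 0.73 to 0.94 with 1 library left out at a time. Its exons overlap those of Ints8 on the other strand, and whether counting used strand is not given in the sources used here. Ints8 itself read 93.1, 80.7 and 82.3 BPM in mutants 6, 8 and 9, against 69.4, 80.0 and 76.3 BPM in controls 5, 7 and 11, also higher in every mutant than in every control, with a log2 fold change of 0.18 (SE 0.25). The same limit holds for Ccnd1 (LTO1), Ccnd2 (9330179D12Rik), Ccnd3 (Bysl), Lig1 (Zswim9), Fen1 (Tmem258) and Orc4 (Mbd5), whose exons overlap the gene in parentheses on the other strand. It also holds for Mcm7, Cdc45, Gins2, Orc1, Orc2, Orc6, Pole, Rfc2, Rfc4, Rfc5 and Tk1. Unlike Ints8, the Ccnd2 neighbour 9330179D12Rik read 0 BPM in every kidney but control 11, which held 0.16 BPM. Ccne1, the cyclin E1 gene (chr7:38097984-38107534, minus strand), read 19.7, 38.6 and 36.2 BPM in mutants 6, 8 and 9, against 40.0, 32.3 and 39.9 BPM in controls 5, 7 and 11. Mutant 6 was the lowest and the other mutants lay among the controls (log2 fold change -0.29, SE 0.34, limma adjusted p = 0.931). With 1 library left out the fold change of Ccne1 ran from -0.46 to 0.0046, so its sign was not stable.

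Ccnd2, which encodes cyclin D2 (chr6:127125162-127152193, minus strand), read 492, 465 and 450.3 BPM in mutants 6, 8 and 9, against 378, 363 and 320.0 BPM in controls 5, 7 and 11. All mutants lay above all controls and the spread within each group was small. Ccnd2 averaged 469 ± 21.3 BPM in mutant and 354 ± 30.3 BPM in control kidneys (SD, n = 3 per group), which gives a log2 difference of 0.41 (SE 0.18, interval 0.043 to 0.77, limma adjusted p = 0.858), and 0.34 to 0.46 with 1 library left out at a time. Ccnd1, the cyclin D1 gene and the member at the highest level per kilobase (chr7:144929931-144939925, minus strand), read 479.8, 494 and 463 BPM in mutants 6, 8 and 9, against 527, 495 and 657 BPM in controls 5, 7 and 11. Mutant 8 and control 7 differed by less than 1 BPM, so the groups only just failed to overlap, and they did overlap with quantile normalization and with totals without erythroid, muscle and the 10 highest genes (log2 fold change -0.21, SE 0.18, limma adjusted p = 0.914, -0.093 without control 11). Ccnd3, the cyclin D3 gene, read 102, 93.1 and 124 BPM in mutants 6, 8 and 9, against 95.1, 99.2 and 167 BPM in controls 5, 7 and 11, and control 11 was the highest (log2 fold change -0.14, 0.12 without control 11). E2f1, an activator of the S phase genes, read 25.4, 20.8 and 17.6 BPM in mutants 6, 8 and 9, against 11.6, 22.1 and 25.4 BPM in controls 5, 7 and 11, with overlap (log2 fold change 0.16, SE 0.41).

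Ratios between paralogs within a kidney do not depend on scaling to library totals. Per kilobase of exon, the ratio of Ccne2 to Ccne1 was 1.17, 0.507 and 0.533 in mutants 6, 8 and 9, against 0.231, 0.360 and 0.317 in controls 5, 7 and 11. The ratio of Ccnd2 to Ccnd1 was 0.572, 0.525 and 0.542 in mutants 6, 8 and 9, against 0.400, 0.409 and 0.271 in controls 5, 7 and 11. Both ratios were larger in every mutant than in every control kidney. For Ccnd2 to Ccnd1 this follows from the single genes, as Ccnd2 lay higher and Ccnd1 lower in every mutant. The ratio of Ccnd3 to Ccnd1 overlapped, at 0.326, 0.288 and 0.411 in mutants 6, 8 and 9, against 0.276, 0.307 and 0.388 in controls 5, 7 and 11. The pairs were formed with the values of these genes known, so no test is given. On that scale Ccnd1 exceeded Ccnd2 in all 6 kidneys, and Ccne1 exceeded Ccne2 in every kidney other than mutant 6.

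**Figure D4:**
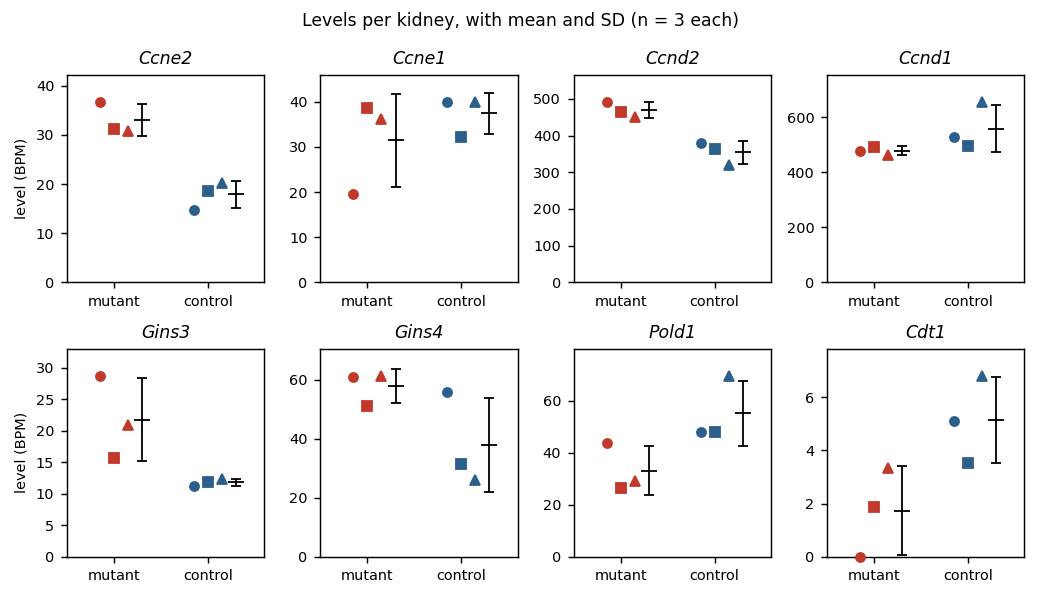
Level in BPM (y axes, each starting at 0) of 8 genes in the mutant kidneys (left, red) and control kidneys (right, blue); circle, square and triangle are mutants 6, 8 and 9 or controls 5, 7 and 11, and bars show the mean and SD (n = 3 each). Ccne2, Ccnd2 and Gins3 lie higher in every mutant and Pold1, Cdt1 and Ccnd1 lower, while Ccne1 and Gins4 overlap.

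Other genes of the pathway, 70 from a list of kinases, inhibitors, E2F and RB-family genes, fork factors and nucleotide enzymes, were as divided. Of 69 tested, 38 lay above 0 and 31 below (median 0.063) and 0 were called by limma. At an unadjusted p below 0.05 there were 3 higher and 1 lower, 4.35% and 1.45% of the list against 2.90% and 2.70% of all genes. By unadjusted p the first was Donson, a fork factor, at 28.7, 9.14 and 18.1 BPM in mutants 6, 8 and 9, against 6.22, 4.95 and 8.38 BPM in controls 5, 7 and 11 (log2 fold change 1.28, SE 0.53, limma adjusted p = 0.854). Every mutant exceeded every control, though mutant 8 lay close to control 11. The next were Ctps, of CTP synthesis (0.72), Lin52, of the DREAM complex (-1.15), Tfdp1 and Tfdp2, the partners of E2F (0.63 and 0.46), and Cdkn1b, the kinase inhibitor p27 (-0.55). Among these, Lin52 was lower and Tfdp2 higher in every mutant than in every control, and Ctps, Tfdp1 and Cdkn1b overlapped. Without overlap there were 8 higher and 2 lower, 11.6% and 2.90% of the list against 6.10% and 5.12% of all genes. The 11 tested kinases, activators and inhibitors had a mean log2 level relative to control of 0.072, 0.15 and 0.11 in mutants 6, 8 and 9, against -0.029, -0.0083 and 0.038 in controls 5, 7 and 11. This mean, like that of the helicase activation genes, was higher in every mutant than in every control. Those of the other groups of this list overlapped. The 11 genes join kinases with their inhibitors, 7 above 0 and 4 below. Cdkn2c had the largest log2 fold change of the 11 (1.43, SE 0.77) at levels near the floor. It read 2.12, 6.12 and 6.01 BPM in mutants 6, 8 and 9, against 0, 1.03 and 2.93 BPM in controls 5, 7 and 11. The mean thus leans on a low-level gene. Cdkn2a did not pass the filter on low values.

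Genes of mitosis, which act after replication in the same dividing cells, gave another count. Of 43 mitosis genes 38 lay above 0 and 5 below, with a median log2 fold change of 0.27, against 0.037 for the replication and G1/S genes. Limma called 0. At an unadjusted p below 0.05 there was 1 with higher values, 2.33% of the list against 2.90% of all genes. Without overlap 7 (16.3%) were higher, against 6.10% of all genes. By unadjusted p the first were Smc2, a condensin subunit (0.71), Cdk1, the mitotic kinase (0.44), and Mad2l1, a spindle checkpoint gene (0.61). Their mean log2 level was 0.29, 0.15 and 0.30 in mutants 6, 8 and 9, against 0.17, 0.14 and -0.31 in controls 5, 7 and 11. Control 11 lay far below the other controls, and mutant 8 lay between controls 5 and 7. Summed over the list, mitosis genes held 4689 to 5137 BPM in mutant kidneys, against 4845, 4553 and 3049.9 BPM in controls 5, 7 and 11. Without control 11 the mitosis median was 0.069, with 28 of 43 (65.1%) above 0, and the replication and G1/S median was 0.14, with 30 of 51 (58.8%) above 0, while the median of all genes was -0.0057. Without control 11 and mutant 6 the median was 0.079 for mitosis, with 26 of 43 above 0, and 0.076 for replication and G1/S, with 34 of 51 above 0. The gap between the medians was thus much smaller without control 11, and the order of the medians differed between these 2 settings. In control 11 mitosis transcripts were low in the mean but not in every gene, and the replication and G1/S genes were divided. Of Mki67 it held 247 BPM, against 982.5 and 757.6 BPM in controls 5 and 7. Yet its Plk1 (67.2 BPM) and Ncapd2 (213 BPM) were the highest of all 6 kidneys. Control 11 was the highest for 14 of the 51, Mcm2, Mcm3, Mcm5, Fen1 and Ccnd3 among them. It was the lowest for 10, Gins4, Pola1, Rfc1 and Tyms among them, and the mean log2 level of all 51 there was 0.022.

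**Figure D5:**
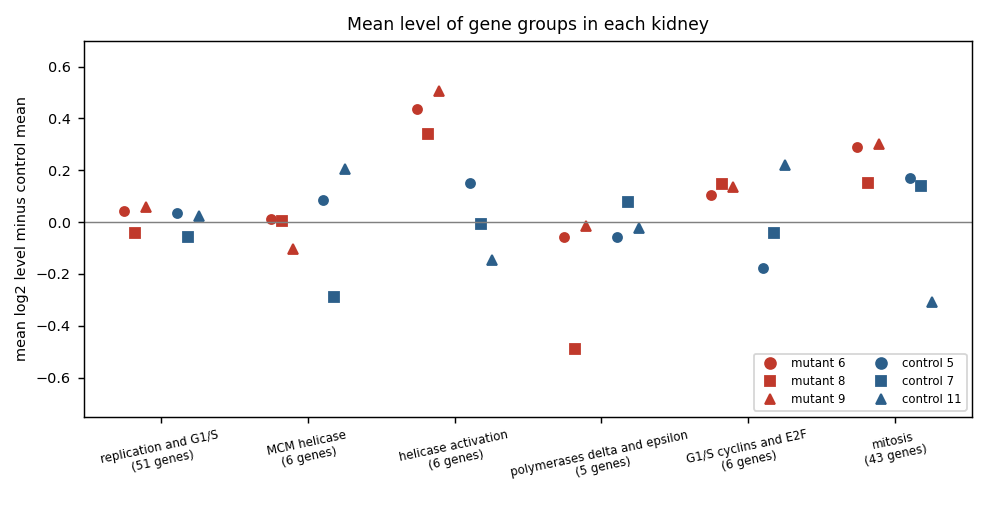
Mean log2(BPM + 1) level of each gene group minus the control mean (y axis) in each kidney, mutants left and controls right of each group's centre; each symbol is 1 kidney. The mean of the 51 replication and G1/S genes lies within -0.056 and 0.059 in all kidneys. The mean of the helicase activation genes is higher in every mutant, the means of the other groups shown overlap, and control 11 lies at -0.31 for the mitosis list.

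Several marker lists of kidney cell types had sums that lay apart between the groups. Proximal tubule markers (12 of 12 in the table, 1 above 0) summed to 4069 to 5902 BPM in mutant kidneys and 6759 to 8479 BPM in control kidneys. Podocyte markers (6 of 6, 0 above 0) summed to 861 to 972 BPM in mutant kidneys and 976 to 1438 BPM in control kidneys. Both sums lay lower in every mutant than in every control, but the podocyte sums nearly touched, at 972 BPM in mutant 8 and 976 BPM in control 11. Of the single markers, 6 of 12 for proximal tubule (50%) and 0 of 6 for podocyte (0%) were lower without overlap, against 5.12% of all genes. Ureteric bud markers (10 of 10, 8 above 0) summed to 811 to 905 BPM in mutant kidneys and 695 to 738 BPM in control kidneys, and stroma markers (10 of 10, 6 above 0) to 3307 to 3898 BPM in mutant kidneys and 2776 to 3258 BPM in control kidneys, both without overlap. Nephron progenitor markers (12 of 12) overlapped in sum, at 898 to 981 BPM in mutant kidneys and 857 to 959.6 BPM in control kidneys, but were divided: of 11 tested, 6 lay above and 5 below 0, between -1.48 and 1.01. Among them 3 were higher and 3 lower without overlap (27.3% each, against 6.10% and 5.12% of all genes). Endothelium markers (6 of 6, 3 above 0) overlapped at 1012 to 1111 BPM in mutant kidneys and 971 to 1184 BPM in control kidneys. Macrophage markers (7 of 8, 3 of 6 tested above 0) at 112 to 139.6 BPM in mutant kidneys and 96.8 to 118 BPM in control kidneys and erythroid markers (8 of 12, 5 of 6 tested above 0), from cells that also divide, at 1045 to 1929 BPM in mutant kidneys and 1066 to 1475 BPM in control kidneys overlapped too. Muscle markers (8 of 8) reached 325 BPM in mutant 9, against at most 13.0 BPM in any other kidney. No marker was at 0 in all libraries, and the part of these lists in the levels of replication genes was not tested.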

How the data were processed

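RNA of 6 whole kidneys was freed of ribosomal RNA before Ion Total RNA-seq library construction, per the labels. The submitters' processing notes name mm10 and bedtools, without version or role. Aligner, annotation, strand setting and read filters were not given in the sources used here. As deposited, the signal, read from the values, is summed base coverage per gene plus 1, times a factor per library: each value over its column's smallest was whole (tolerance 0.001) for 100% of values. The deposited ratio is the mutant over the control mean, by the authors, and the deposited p-value is unadjusted, with its test not stated.

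The floor was removed and coverage scaled to 1000000 per library (BPM, 794 to 1235 covered bases each). Genes at 1 BPM or more in at least 3 libraries were tested (13977 of 23219) in limma 3.58.1 (R 4.3.3) on log2(BPM + 1), with trend and robust options, two-sided, with Benjamini-Hochberg adjustment at 0.05. Fold changes of low genes are understated. No count model was run, and counting error is unknown. Positions and exon lengths come from GENCODE M21 (mm10). Copies of a gene elsewhere in the genome may share reads.

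Members and gene lists were chosen with earlier results of these data known. Values per library are given for the 12 members with the smallest p, the MCM subunits, the cyclins and E2f1, and other pathway genes are named by smallest p, up to 6, with 3 for mitosis. Genes outside this rule were named after their values were seen. Alternatives were quantile normalization, totals without erythroid, muscle and the 10 highest genes, no filter, a minimum of 5 BPM, a pseudocount of 0.1, no trend, sample weights, and libraries left out.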

Additional observations from a re-analysis of the deposited data

How the results depend on the processing

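No member was called under any of the 14 alternatives. Over all genes limma called 1 gene with quantile normalization, 1 without the trend, 4 with sample weights, 0 to 8 with 1 library left out and 22 without control 11 and mutant 6. The median log2 fold change of the members ran from -0.0092 to 0.14 with 1 library left out, the highest without control 11. Members without overlap numbered 6 to 10 higher and 3 to 9 lower with 1 library left out, and 12 higher and 5 lower without control 11 and mutant 6. Fewer libraries make separation easier for any gene. The share of all genes without overlap is not given for these settings, so nothing about the members can be read from these counts. The lower members numbered 2 with quantile normalization and with the reduced totals, where Ccnd1 overlapped, and 2 at a minimum of 5 BPM, where Cdt1 left the test. Of 713 member values under the alternatives 42 changed sign, over 24 members, and 27 members changed sign in none of the alternatives that tested them, Ccne2, Ccnd2, Gins3, Gins4, Pold1, Cdt1 and Ccnd1 among them. Cdt1 was not tested at a minimum of 5 BPM. With sample weights the changed values were Mcm2 0.022, Rrm1 0.011. Without control 11 and mutant 6 they were Mcm2 0.19, Mcm3 0.10, Gins2 0.060, Pold3 -0.088, Rfc5 0.036, Rpa1 0.025, Fen1 0.32, Rrm1 0.017, Ccne1 0.054, Ccnd3 0.15. With 1 library left out, the ranges on the log2 scale that crossed 0 were Mcm2 -0.23 to 0.16, Mcm4 -0.0036 to 0.22, Mcm7 -0.24 to 0.031, Orc1 -0.34 to 0.52, Orc6 -0.57 to 0.021, Gins2 -0.32 to 0.049, Pola2 -0.28 to 0.072, Prim1 -0.012 to 0.16, Pold3 -0.10 to 0.27, Pole2 -0.49 to 0.27, Pcna -0.061 to 0.38, Rfc2 -0.10 to 0.090, Rfc3 -0.010 to 0.47, Rfc4 -0.56 to 0.025, Fen1 -0.48 to 0.29, Rrm1 -0.14 to 0.14, Rrm2 -0.063 to 0.14, Tk1 -0.70 to 0.0018, Ccne1 -0.46 to 0.0046, Ccnd3 -0.28 to 0.12 and E2f1 -0.17 to 0.37. The cause was not tested. No paired analysis was possible because the label numbers are not shared between the groups. Depth in reads is unknown, and 3 kidneys a group limit what the fit can call.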
